A study of Mus musculus with 9 samples.

Results

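Hippocampal gene expression was compared between mice that inhaled linalyl acetate (LA) at 10% and mice that inhaled it at 1%. The comparison used 6 of the 9 arrays of the study, the 3 labelled 10% LA and the 3 labelled 1% LA, and no vehicle array entered it. Every array held the RNA of 1 male ICR mouse, 8 weeks old, of an outbred stock and housed singly. After 7 days of acclimation, mice allocated at random breathed LA in a whole-body chamber over 7 days, and a vehicle group received 1% Tween 80 in the same way. All were given the tail suspension test, which scores immobility, after 30 min of inhalation. The hippocampus was then measured on Clariom S arrays from 100 ng of RNA. Groups were taken from the sample titles. The description field of 5 samples, the 3 vehicle mice and 1% LA mice 1 and 2, speaks instead of oral and injected agents, with oleacein and bacterial endotoxin (LPS) named for both 1% LA mice. The series' design text also names a human cell line, although the arrays are mouse arrays.

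LA is the acetate ester of linalool and a main volatile of lavender and bergamot oils. The direct comparison of both doses asks which transcripts depend on how much LA was inhaled. Hippocampal RNA comes mostly from pyramidal cells, granule cells and glia. The choroid plexus, a secretory epithelium that makes cerebrospinal fluid, lies against the hippocampus in the lateral ventricle and can be carried along when the tissue is taken. Its transcripts are abundant, and transthyretin (Ttr) is among the strongest of any brain tissue.

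No gene passed the test between the doses. Of 13319 transcript clusters with a mean log2 signal above 5.97 over the 6 arrays, 0 (0% of those tested) had an adjusted p under 0.05 in limma, and the smallest adjusted p was 0.999. Unadjusted p-values under 0.05 were found for 341 clusters (2.56%), 157 with the higher mean at 10% LA (1.18%) and 184 with the lower (1.38%). Adding a fold above 2, the criterion named in the design text, left 13 clusters (0.0976%), 3 higher and 10 lower, and 4 of the 10 were choroid plexus markers. In 833 clusters (6.25%) the 3 arrays of one dose lay wholly above or below those of the other, 365 higher at 10% LA (2.74%) and 468 lower (3.51%). If the doses did not differ, a share of about 0.1 would be expected to lie apart in this way. A share of 0.05 would be expected at an unadjusted p under 0.05. Both observed shares were below these, so the counts alone are no sign of a difference. All differences below are 10% LA minus 1% LA on the log2 scale, and "higher" and "lower" describe means that did not pass the adjusted test. The labels give separate mice and no batch or pairing. Each p-value thus rests on the spread between 3 mice a group, and limma draws each cluster's variance toward that of the other clusters.

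The size of what was measured can still be bounded. Across clusters the median difference was -0.01, and the 5th and 95th percentiles were -0.35 and 0.31. The 95% interval lay within a 2-fold change in either direction for 12593 clusters (94.5%) and within a 1.5-fold change for 6860 (51.5%). Only 39 clusters differed in their means by more than 1 log2 unit, 4 higher and 35 lower, and 16 of the 39 belonged to the choroid plexus list. The 35 also include Cwc22 (SE 1.79) and a group of predicted genes, several with identical values (-1.27, SE 1.54). Those clusters are not independent counts. Arrays of different dose resembled each other as much as arrays of the same dose. Correlations across clusters ran from 0.9839 to 0.9906 over the 9 pairs between doses, from 0.9849 to 0.9869 within 1% LA and from 0.9832 to 0.9863 within 10% LA. The first principal component (27.4% of the variance) held the highest and one of the lowest scores within the 10% LA group, 29.1 for mouse 2 and -18.5 for mouse 1, and 1% LA mouse 3 scored -18.6. Array medians over all clusters were 6.84 to 6.86.

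**Figure D1:**
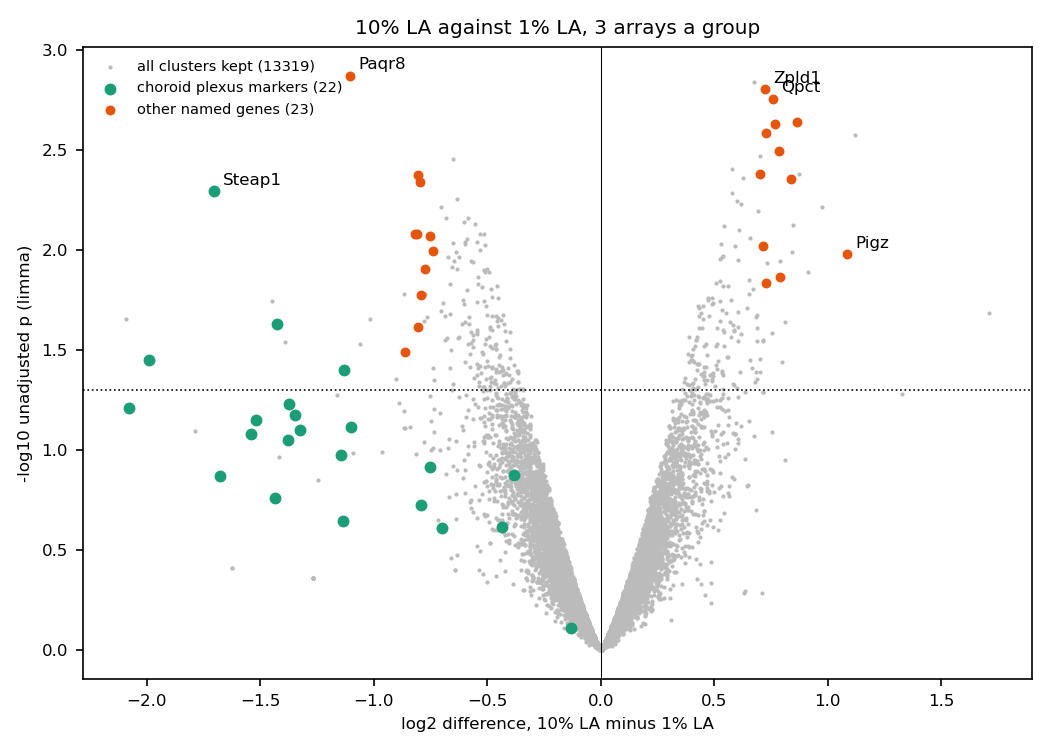
Log2 difference, 10% LA minus 1% LA, on the x axis against -log10 of the unadjusted limma p on the y axis, 1 point per transcript cluster. The 22 choroid plexus markers (green) all lie left of 0, the other 23 named genes are orange, and the dotted line marks an unadjusted p of 0.05, which 341 of 13319 clusters passed.

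The genes with the largest separated differences were taken by one rule: unadjusted p under 0.05, no overlap between the doses, and the 12 largest differences in each direction among 110 higher and 129 lower genes. They were thus picked for being apart. Their values describe the comparison and add no test to it. The 12 higher genes differed by 0.70 to 1.08 and the 12 lower ones by -0.74 to -1.70.

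Paqr8, a membrane progesterone receptor, had the smallest unadjusted p of all clusters. Its log2 signal was 13.73, 12.74 and 13.32 at 1% LA and 12.06, 12.29 and 12.13 at 10% LA. The 3 arrays of the higher dose lay close together, and each was below the lowest 1% LA array. The difference was -1.10 (SE 0.24, 95% interval -1.65 to -0.56, unadjusted p = 0.00134, adjusted p = 0.999 in limma), a 2.15-fold lower signal. Vehicle mice 1 and 2 read 12.77 and 12.45, between the group means. With the choroid plexus level of each array as a covariate, the Paqr8 difference was -1.08, close to the value without it.

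Steap1, a metalloreductase family member that is also a choroid plexus marker, had the largest difference of the 24. At 1% LA it read 8.09, 8.32 and 8.19, and at 10% LA 7.41, 5.20 and 6.88. The 1% LA mice were tightly grouped, while the 10% LA mice spread over more than 2 log2 units with mouse 2 lowest. The difference was -1.70 (SE 0.47, unadjusted p = 0.00505). It was -1.06 without 10% LA mouse 2 and -0.93 with the choroid plexus covariate.

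Among the higher genes, Pigz, a mannosyltransferase of GPI anchor synthesis, differed most. Its values were 8.16, 8.97 and 8.99 at 1% LA and 9.15, 10.44 and 9.78 at 10% LA, a difference of 1.08 (SE 0.34). The groups were separated by a narrow gap, 8.99 against 9.15, and the covariate brought the difference to 0.49. Qpct, the glutaminyl cyclase that forms the pyroglutamate end of peptide hormones, was more clearly apart. It read 6.74, 6.67 and 6.55 at 1% LA against 7.62, 7.16 and 7.46 at 10% LA, a difference of 0.76 (SE 0.17, unadjusted p = 0.00174). Vehicle mice 1 and 2 read 6.49 and 6.53, at the level of 1% LA.

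Adgrd1, an adhesion G protein-coupled receptor, read 7.34, 7.46 and 7.86 at 1% LA and 8.19, 8.34 and 8.72 at 10% LA, with a difference of 0.86 (SE 0.21). Rnd3, an atypical small GTPase that counters actomyosin contraction, read 7.36, 7.33 and 8.07 against 8.43, 8.27 and 8.58, a difference of 0.84 (SE 0.22). In both genes 1% LA mouse 3 was the nearest to the 10% LA group. Agtr1a, the type 1 angiotensin II receptor, read 6.31, 5.37 and 5.86 against 6.38, 6.78 and 6.57, so that 1% LA mouse 1 almost reached the lowest 10% LA array. The other higher genes were Xaf1, an interferon-inducible pro-apoptotic factor (0.79), Pstpip2, an F-BAR membrane protein (0.78), Pcdh11x, a protocadherin of cell adhesion (0.72), Slc25a53, of the mitochondrial carrier family (0.70), Zpld1, a zona pellucida-domain protein (0.72), and the zinc finger genes Zfp954 (0.77) and Zfp511 (0.73).

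Several of the lower genes act in metabolism. Retsat, retinol saturase, read 9.39, 8.37 and 7.86 at 1% LA and 7.41, 7.83 and 7.79 at 10% LA. Its difference of -0.86 (SE 0.34) came mainly from 1% LA mouse 1, and the nearest arrays of the doses almost touched. Blvra, which reduces biliverdin to bilirubin, differed by -0.82, Slc16a9, of the monocarboxylate transporter family, by -0.80, and Slc39a11, of a zinc transporter family, by -0.74. Pcolce, an enhancer of procollagen processing, read 6.71, 6.65 and 6.27 against 6.11, 5.47 and 5.63, a difference of -0.81 (SE 0.21). The trafficking and junction genes in the set were Tbc1d9, with a Rab GTPase-activating domain (-0.81), Tor3a, a torsin of the endoplasmic reticulum (-0.81), Amotl1, an angiomotin relative at cell junctions (-0.79), Sh3d19, an adaptor protein (-0.78), and Epn3, an epsin of endocytosis (-0.75). With the choroid plexus covariate Sh3d19 stood at -0.45, Tor3a at -0.43 and Amotl1 at -0.73.

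The vehicle arrays were set beside the named genes as a description. Of the 12 higher genes, 9 had a vehicle mean nearer to 1% LA and 3 nearer to 10% LA. Of the 12 lower genes, 4 were nearer to 1% LA and 8 nearer to 10% LA. These counts were the same with vehicle mice 1 and 2 alone as with all 3. The choroid plexus level was low in vehicle mouse 1 (6.73), and several of the lower genes came nearer to 0 with the choroid plexus covariate, Pcolce to -0.54 and Slc16a9 to -0.58. Its part in the counts was not tested, and no test of the difference between the directions was made. The same share over all clusters was not worked out, so the counts have no base to be read against. The third vehicle array differs between the deposited tables, so it is given no weight here.

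**Figure D2:**
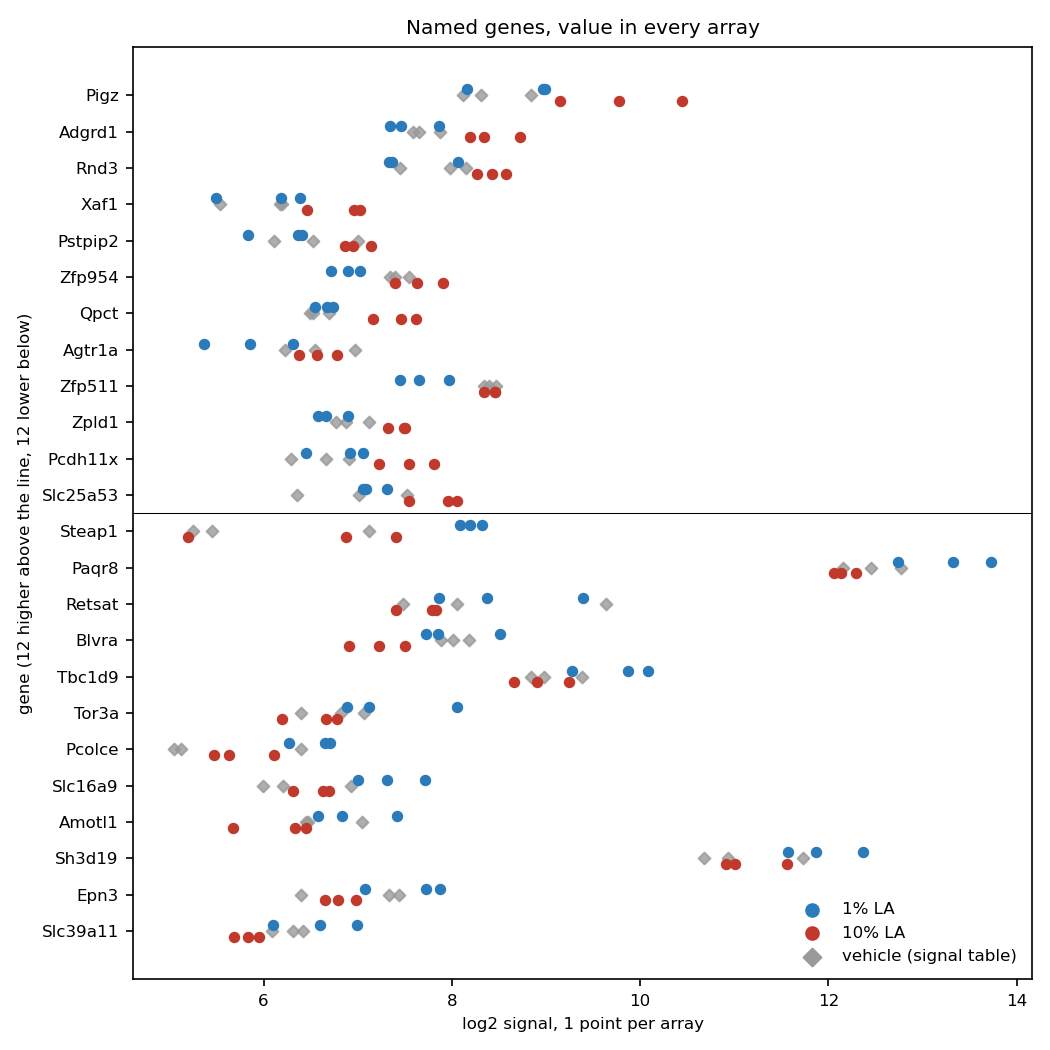
Log2 signal on the x axis of the 24 named genes in every array, with 1% LA in blue, 10% LA in red and the 3 vehicle arrays of the signal table in grey. The 12 genes above the line were higher at 10% LA and the 12 below it lower. The doses do not overlap in any of them, because that was the rule for naming them, while vehicle points lie on either side.

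Choroid plexus markers gave the largest median difference of the 42 gene lists. All 22 markers kept by the filter, of 29 found on the array, had a lower mean at 10% LA, with a median difference of -1.34, while 52.3% of all clusters were lower with a median of -0.01. At unadjusted p under 0.05 there were 4 of the 22, all lower, against 1.38% of all clusters lower at that threshold, and 0 passed the adjusted test. The mean level of the 22 was 10.8, 9.92 and 9.84 in the 1% LA mice and 10.5, 7.51 and 9.02 in the 10% LA mice. The groups overlap, and 10% LA mouse 1 stood above 2 of the 3 mice of the lower dose. Without 10% LA mouse 2 the median was -0.45 and without mouse 1 it was -2.11. Vehicle mice 1 and 2 had levels of 6.73 and 9.15, further from each other than the doses are in their medians. In whole tissue, fewer cells of a type and less RNA per cell cannot be told apart.

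Single markers behaved alike. Ttr, the thyroxine and retinol carrier of cerebrospinal fluid, read 19.64, 19.43 and 19.51 at 1% LA and 19.63, 16.06 and 18.75 at 10% LA. Mouse 1 of the higher dose was thus at the 1% LA level and mouse 2 far below it. The Ttr difference of -1.38 had a 95% interval of -3.01 to 0.25 (unadjusted p = 0.0886). Kl, the anti-ageing protein klotho and a co-receptor of fibroblast growth factor 23, read 13.06, 11.26 and 11.86 against 11.94, 8.20 and 10.07, a difference of -1.99 (SE 0.81). F5, coagulation factor V, differed by -1.43 (SE 0.53) and Tmem72, a membrane protein of unsettled role, by -1.13 (SE 0.47). Kcnj13, an inward rectifier potassium channel of the epithelium, differed most, by -2.08 (SE 0.97), and is named outside the rule. With the covariate, which removes the mean of these markers by construction, Kl stood at -0.42, F5 at -0.46 and Ttr at -0.07.

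**Figure D3:**
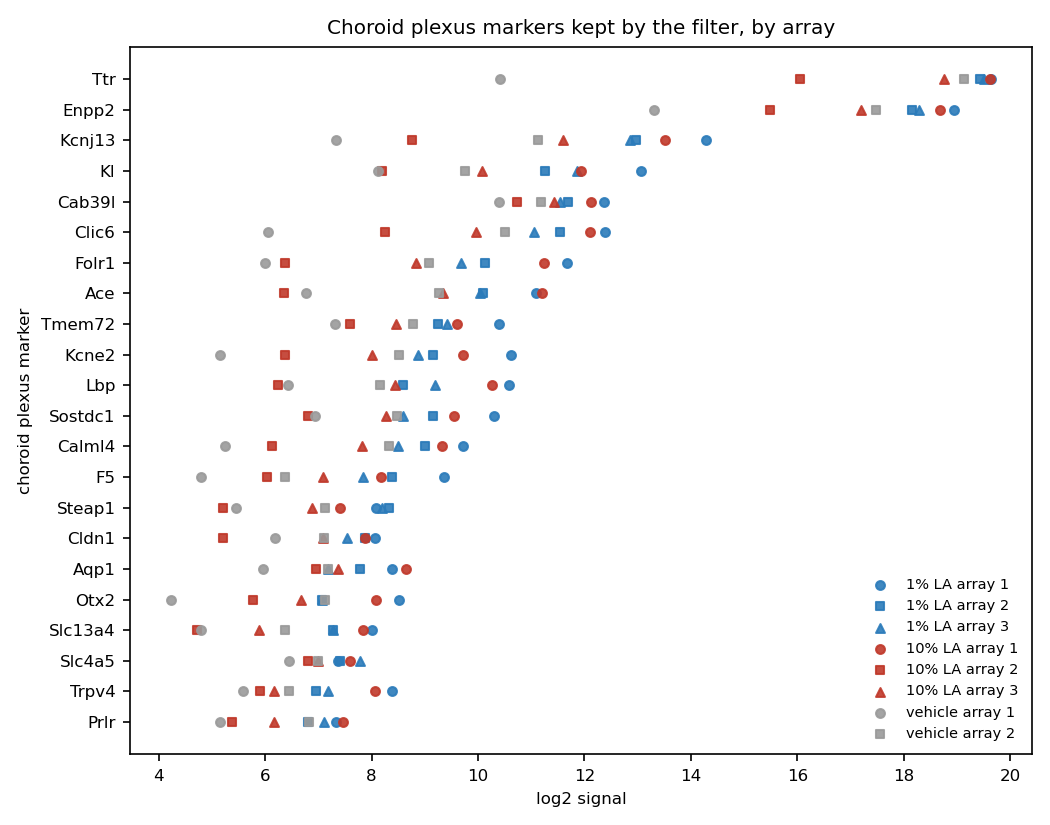
Log2 signal on the x axis of the 22 choroid plexus markers, 1 symbol per array, with dose by colour and mouse number by shape. The red squares (10% LA mouse 2) lie lowest among the LA arrays in nearly every row. The red circles (10% LA mouse 1) lie among the blue 1% LA symbols in most rows, but below them for Steap1 and above them for Aqp1, Ace and Prlr. Grey symbols are vehicle mice 1 and 2.

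Markers of neighbouring tissues were mostly lower as well, by less. Of 11 ependymal and cilia markers, 3 were higher and 8 lower at 10% LA, with a median of -0.41. It was -0.10 without 10% LA mouse 2, -0.18 without 1% LA mouse 1 and -0.10 with the covariate. Dnah11, an axonemal dynein heavy chain, read 7.50, 6.55 and 7.16 at 1% LA against 6.59, 5.73 and 6.67 at 10% LA, a difference of -0.74 (SE 0.31). Tekt1, a tektin of ciliary microtubules, differed by -0.75 (SE 0.34). Of 21 meningeal and fibroblast markers, 5 were higher and 16 lower, with a median of -0.19. It was -0.07 without 10% LA mouse 2, -0.34 without 1% LA mouse 3 and -0.01 with the covariate. Igf2, insulin-like growth factor 2, lay between 12.89 and 14.24 in the 1% LA mice and read 13.78, 9.32 and 11.67 in the 10% LA mice. Its difference of -1.79 (SE 0.91) became 0.01 with the covariate. Mgp, matrix Gla protein, kept -0.47 of -0.62, and Nupr1, a stress-induced nuclear protein, -0.32 of -0.51.

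Myelin markers were higher by value at 10% LA. Of 28 markers kept, 23 were higher and 5 lower, with a median difference of 0.31 (0.13 to 0.44 with single arrays left out, 0.56 with the choroid plexus covariate). At unadjusted p under 0.05 there were 3 of the 28, all higher, against 1.18% of all clusters higher at that threshold, and 0 passed the adjusted test. Their mean level was 11.5, 11.0 and 11.1 in the 1% LA mice and 11.8, 11.4 and 11.3 in the 10% LA mice, so the doses overlapped. Tspan2, a tetraspanin of the myelin sheath, did not overlap. It read 12.13, 11.68 and 12.18 against 13.05, 12.40 and 12.50, a difference of 0.65 (SE 0.22, unadjusted p = 0.0166). Aspa, which splits N-acetylaspartate in oligodendrocytes, differed by 0.54 (SE 0.20), Ppp1r14a, a phosphatase inhibitor, by 0.64 (SE 0.28), and Hapln2, a link protein of the nodal matrix, by 0.47 (SE 0.20).

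Cells on the way to myelination had no common direction. Of 16 precursor and early oligodendrocyte markers, 7 were higher and 9 lower with a median of -0.06, which turned to 0.08 without 10% LA mouse 2. Enpp6, a choline phosphodiesterase of newly formed oligodendrocytes, read 7.21, 7.10 and 7.28 at 1% LA and 7.96, 7.55 and 7.57 at 10% LA, without overlap and with a difference of 0.50 (SE 0.17). Bcas1, a marker of early myelinating cells, differed by 0.48 (SE 0.22). Matn4, a matrix protein of precursors, differed by 0.52 and Neu4, a sialidase, by -0.42, both with overlap.

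Microglial markers were mostly higher, but their direction rested on 1 mouse. Of 22 kept, 17 were higher and 5 lower at 10% LA, with a median of 0.15. The median was -0.05 without 10% LA mouse 1, whose marker level of 8.90 was the highest of the 6 LA arrays, and 0.47 with the choroid plexus covariate. C1qb, a chain of complement C1q, read 6.70, 7.09 and 6.92 at 1% LA and 8.02, 6.95 and 7.89 at 10% LA, so mouse 2 of the higher dose lay among the lower-dose values. Its difference was 0.72 (SE 0.28, unadjusted p = 0.0285). C1qc, another C1q chain, differed by 0.55 (SE 0.31), P2ry12, the purinergic receptor of resting microglia, by 0.68 (SE 0.35), and Itgam, the integrin CD11b, by 0.42 (SE 0.22). The remaining C1q chain, C1qa, went the other way, by -0.15 (SE 0.22), and so did Tmem119, by -0.13 (SE 0.19). Both are named outside the rule and are among the 5 lower markers. Astrocyte markers (25 kept, median 0.06) and endothelial and pericyte markers (26 kept, median -0.02) differed little. Of 16 blood markers 10 were matched and 3 of these kept, with a median of 0.18. The other 6, all haemoglobin genes, lay on clusters with several symbols and were not examined.

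Markers of the hippocampal neurons themselves had small median differences. The filter kept 22 of 23 dentate granule cell markers. Of these, 4 were higher or equal (Pdzd2 had equal means) and 18 lower at 10% LA, with a median of -0.10. The median was -0.42 without 1% LA mouse 2, whose level of 9.62 was below those of the other 1% LA mice at 10.4 and 10.2. C1ql2, a C1q-like synaptic organizer of mossy fibres, differed by -0.37 (SE 0.21), and Plk5, a polo-like kinase of neurons, by -0.30 (SE 0.19). The markers of CA2 and CA3 (21 kept) had a median of 0.02, those of interneurons (21 kept) -0.01, and those of immature granule neurons (10 kept) 0.00. Of 15 CA1 markers, 6 were higher and 9 lower with a median of -0.11, which turned to 0.09 without 10% LA mouse 1 and to 0.05 without 1% LA mouse 1. Fibcd1, a membrane receptor that binds acetylated groups, read 9.75, 9.20 and 9.46 at 1% LA and 8.60, 9.17 and 8.90 at 10% LA, with a difference of -0.58 (SE 0.21) and no overlap, although 9.20 and 9.17 almost touch. Other CA1 markers went the other way, Neurod6 by 0.42 (SE 0.31) and Dkk3 by 0.28 (SE 0.24), both with overlap. Tcf7l2, also in this list, is given with the thalamic markers below.

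Markers of the regions around the hippocampus were also examined. Of 21 subicular and deep cortical markers, 16 were higher and 5 lower, with a median of 0.20. It was 0.00 without 1% LA mouse 1, 0.02 without 10% LA mouse 2 and -0.03 with the choroid plexus covariate. Tshz2, a transcription factor of deep cortex and subiculum, read 7.20, 7.98 and 8.95 at 1% LA and 8.05, 10.50 and 9.56 at 10% LA, a difference of 1.33 (SE 0.60). It was 0.76 without 10% LA mouse 2, 1.99 without 10% LA mouse 1 and 0.24 with the covariate. The groups overlap, and vehicle mice 1 and 2 read 10.57 and 8.86. Cbln1, the synaptic organizer cerebellin 1, differed by 0.81 (SE 0.46), Nts, the precursor of neurotensin, by 0.43 (SE 0.20), and Sulf1, a heparan sulfatase, by -1.42 (SE 0.80). With the covariate Cbln1 stood at 0.12, Nts at 0.28 and Sulf1 at 0.11. Of 14 thalamic and habenular markers, 3 were higher and 11 lower, with a median of -0.24 that ran from -0.42 without 1% LA mouse 3 to -0.09 without 1% LA mouse 1. Tcf7l2, a Wnt effector of thalamic neurons, read 10.56, 9.40 and 8.81 against 8.97, 8.60 and 8.02, a difference of -1.06 (SE 0.41) that was -0.70 with the covariate. Synpo2, an actin-binding protein, differed by -0.71 (SE 0.39), and by -0.38 with the covariate.

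**Figure D4:**
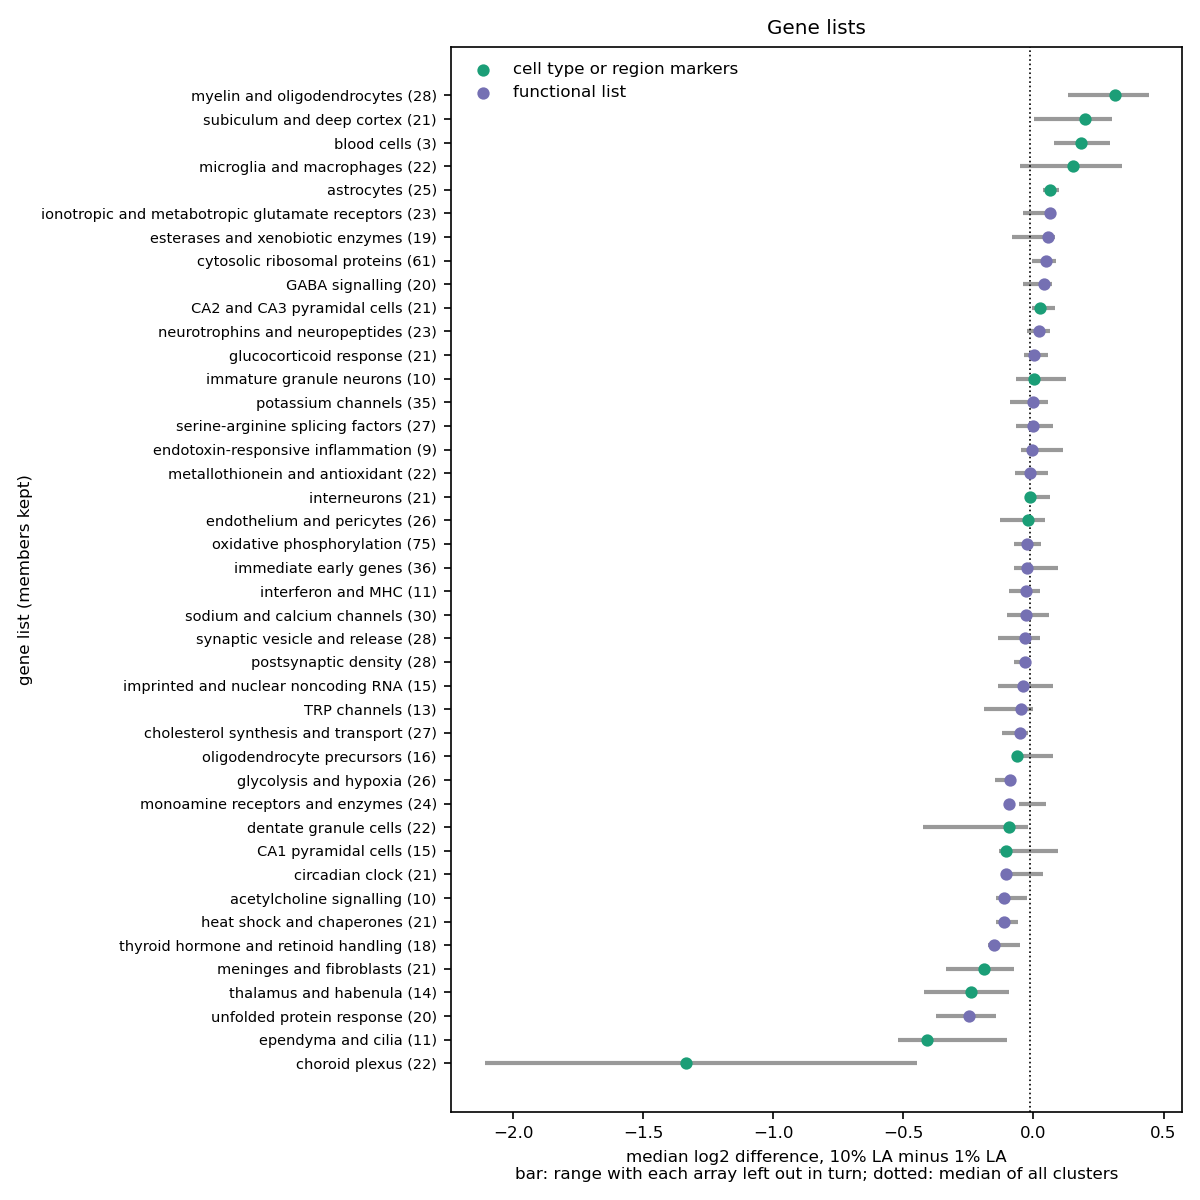
Median log2 difference, 10% LA minus 1% LA, on the x axis for each of the 42 gene lists, with the number of members kept in brackets. Bars span the medians with each of the 6 arrays left out in turn and the dotted line is the median of all clusters, -0.01. The choroid plexus list stands at -1.34 with the widest bar, and most functional lists lie close to the dotted line.

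Activity-regulated genes had no common direction between the doses. Immediate early genes are transcribed within minutes of synaptic activity and include Arc, a regulator of synaptic AMPA receptors, and the transcription factors of the Fos, Jun and Egr families. Of 36 kept from a list of 45, 17 were higher and 19 lower at 10% LA, counting 1 with equal means, with a median of -0.03. The 95% interval lay within a 2-fold change for 33 of the 36, against 94.5% of all clusters, and reached past it for Jun, Ier5 and Egr1. Arc read 7.17, 7.66 and 7.16 at 1% LA and 7.23, 7.28 and 6.99 at 10% LA, a difference of -0.16 with a 95% interval of -0.59 to 0.27. The doses overlapped, while the vehicle mice 1 and 2 read 9.18 and 8.38, above all 6 LA arrays. Arc is named for its known role. It falls outside the rule for named genes.

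Jun, a subunit of the AP-1 transcription factor, was the member with the smallest p. It read 10.59, 10.19 and 10.06 at 1% LA and 9.61, 9.77 and 9.67 at 10% LA, without overlap. The difference was -0.60 (SE 0.18, unadjusted p = 0.00933, adjusted p = 0.999 in limma), and it was -0.58 with the choroid plexus covariate. Cyr61, a matricellular protein, differed by -0.26 without overlap. Pcsk1, a prohormone convertase, differed by 0.41 and Klf6, a zinc finger factor, by 0.44, both with overlap. Ier5 (0.35) and Egr1 (0.03), named because their intervals reached past 2-fold, had upper limits of 1.03 and 1.01.

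**Figure D5:**
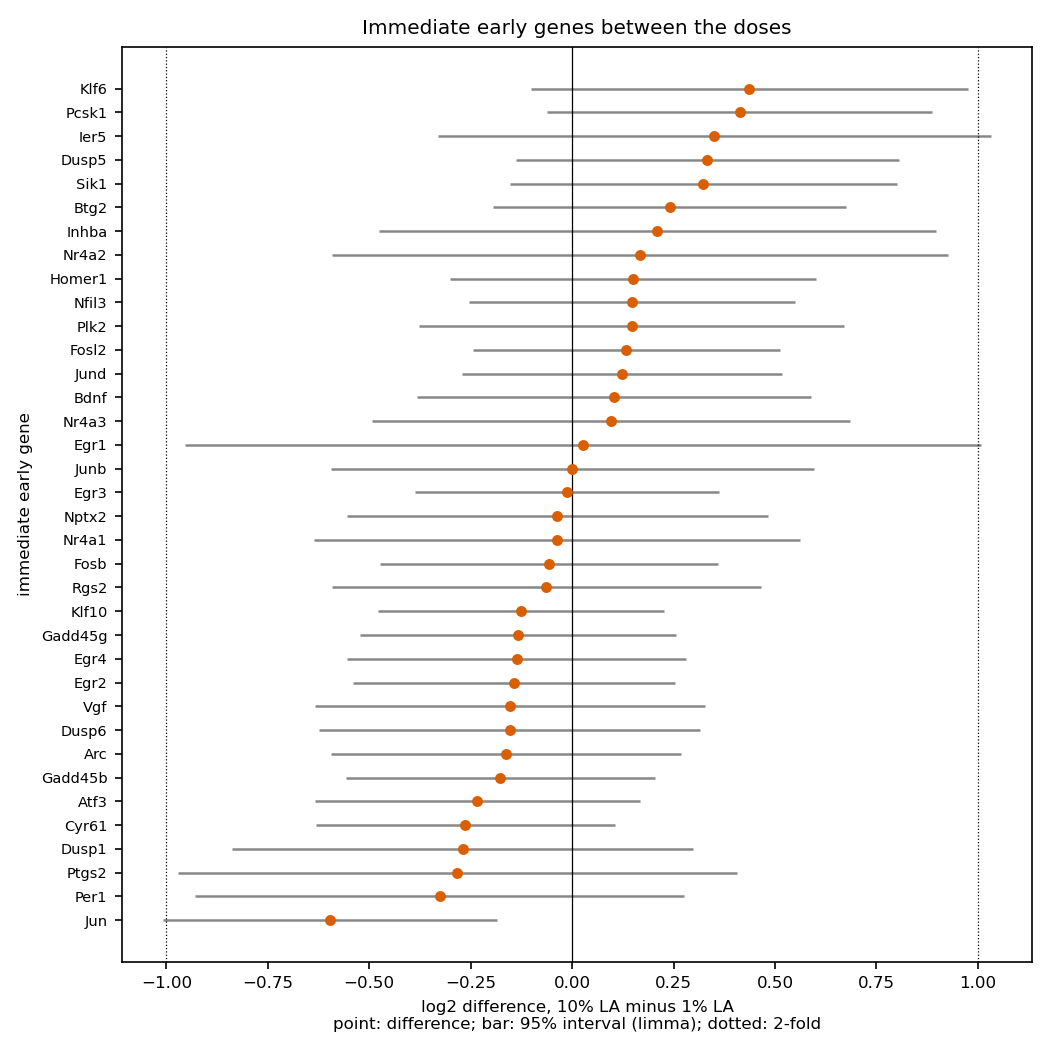
Log2 difference, 10% LA minus 1% LA, on the x axis for the 36 immediate early genes kept, with 95% limma intervals as bars and a 2-fold change in either direction dotted. Points lie on both sides of 0, with Klf6 highest at 0.44 and Jun lowest at -0.60, and the interval of Jun leaves out 0.

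Circadian clock genes, which run daily transcription cycles, also lay close between the doses. Of 21 kept, 6 were higher and 15 lower with a median of -0.11. The 95% interval lay within a 2-fold change for 21 of 21, against 94.5% of all clusters. Without 10% LA mouse 3 the median was 0.04. Dbp, a transcription factor driven directly by the clock and named outside the rule, read 15.84, 15.86 and 15.83 at 1% LA and 15.83, 15.96 and 16.24 at 10% LA, with a difference of 0.17 (95% interval -0.21 to 0.54). Vehicle mice 1 and 2 read 14.79 and 15.01. All 6 LA arrays were thus above these vehicle arrays and close to each other. Npas2, a partner of the core activator Arntl, differed by 0.34 and Cry2, a repressor of the loop, by -0.21, both without overlap. Per2, also a repressor, differed by -0.28.

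Receptors and channels gave scattered single genes and no common shift. Glutamate receptor genes (23 kept) had a median of 0.06, and the 95% interval lay within 2-fold for all 23, against 94.5% of all clusters. Grm3, a presynaptic and glial metabotropic receptor, differed most from 0 among them, by 0.28 (SE 0.19). GABA signalling genes (20 kept) had a median of 0.04, with 19 of 20 intervals within 2-fold, near the share of 94.5% over all clusters. Postsynaptic density genes (28 kept) and synaptic vesicle genes (28 kept) each had 13 members higher and 15 lower with a median of -0.03. Acetylcholine signalling genes (10 kept) had 2 higher and 8 lower with a median of -0.11. Neurotrophin and neuropeptide genes (23 kept) had a median of 0.02.

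Of 24 monoamine receptor and enzyme genes, 11 were higher and 13 lower with a median of -0.09. Htr5a, a serotonin receptor coupled to inhibitory G proteins, read 7.16, 7.62 and 7.23 at 1% LA and 6.95, 6.73 and 6.98 at 10% LA, a difference of -0.45 (SE 0.18, unadjusted p = 0.0342) with no overlap. Htr2c, the serotonin receptor that is abundant in choroid plexus epithelium, read 12.07, 12.00 and 11.50 against 11.95, 10.24 and 10.67. Its difference of -0.90 (SE 0.39) was -0.24 with the choroid plexus covariate. In the TRP channel list (13 kept, median -0.05), 2 members are also expressed by the choroid plexus. Trpm3, a heat-activated and steroid-gated cation channel, differed by -1.45 (SE 0.50) and by -0.48 with the covariate. Trpv4, an osmosensitive channel, differed by -0.79 (SE 0.56) and by 0.18 with the covariate. Trpv4 is itself 1 of the markers averaged in the covariate, so part of its move is fixed by construction.

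Among 35 potassium channel genes, 18 were higher or equal (1 had equal means) and 17 lower. Kcnh2, the ERG1 channel, read 8.87, 8.75 and 8.27 at 1% LA and 8.07, 7.98 and 7.80 at 10% LA, without overlap and with a difference of -0.68 (SE 0.20, unadjusted p = 0.0069). Kcnn1, a small-conductance calcium-activated channel, read 8.60, 8.20 and 8.66 against 8.73, 9.03 and 9.24, a difference of 0.51 (SE 0.20). Both differences stayed near these values with the choroid plexus covariate, at -0.59 and 0.43. Of 30 sodium and calcium channel genes, 14 were higher and 16 lower with a median of -0.03. Cacna1e, which encodes the R-type calcium channel, read 14.12, 14.09 and 14.27 against 13.84, 13.64 and 13.64, a difference of -0.45 (SE 0.16). Cacna1g, of the T-type channels, differed by -0.57 (SE 0.21). Neither overlapped between the doses.

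Genes of the unfolded protein response were mostly lower at 10% LA. This response restores folding capacity in the endoplasmic reticulum by inducing chaperones through ATF6, XBP1 and ATF4. Of 20 kept, 5 were higher and 15 lower with a median of -0.25, against 52.3% lower and -0.01 over all clusters. At unadjusted p under 0.05 there was 1 of the 20, a lower one, against 1.38% of all clusters lower at that threshold, and 0 passed the adjusted test. The mean level was 11.5, 11.5 and 11.4 in the 1% LA mice. It was 11.5 in 10% LA mouse 1, and 11.1 and 11.2 in mice 2 and 3, so mouse 1 matched the lower dose. Choroid plexus markers had the same order among the 10% LA mice, and the median was -0.08 with the choroid plexus covariate and -0.14 without 10% LA mouse 2. Whether choroid plexus RNA accounts for the difference was not tested beyond these values.

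The promoters of 3 of these genes are shown because they carry the ER stress element that ATF6 binds with NF-Y, spelled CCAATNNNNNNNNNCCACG and printed in capitals. Each window is RefSeq sequence of build GRCm38.p6, from 250 bases before to 50 bases after the start, 5′ to 3′ on the plus strand. Dnajc3 lies at chr14:118937682-118937981, Creld2 at chr15:88819396-88819695 and Hspa5 at chr2:34771840-34772139. In Creld2 the element lies on the opposite strand and reads reversed.
Dnajc3: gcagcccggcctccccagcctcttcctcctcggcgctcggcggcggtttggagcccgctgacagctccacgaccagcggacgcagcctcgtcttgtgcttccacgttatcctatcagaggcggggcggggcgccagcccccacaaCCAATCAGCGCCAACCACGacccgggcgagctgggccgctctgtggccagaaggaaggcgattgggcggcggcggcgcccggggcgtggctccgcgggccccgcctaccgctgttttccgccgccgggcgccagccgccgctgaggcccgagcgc
Creld2: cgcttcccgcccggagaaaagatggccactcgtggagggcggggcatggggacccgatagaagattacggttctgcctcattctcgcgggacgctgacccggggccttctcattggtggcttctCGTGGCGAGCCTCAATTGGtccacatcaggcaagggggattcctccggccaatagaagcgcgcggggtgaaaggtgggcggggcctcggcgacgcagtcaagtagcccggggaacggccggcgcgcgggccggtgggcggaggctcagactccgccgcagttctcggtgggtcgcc
Hspa5: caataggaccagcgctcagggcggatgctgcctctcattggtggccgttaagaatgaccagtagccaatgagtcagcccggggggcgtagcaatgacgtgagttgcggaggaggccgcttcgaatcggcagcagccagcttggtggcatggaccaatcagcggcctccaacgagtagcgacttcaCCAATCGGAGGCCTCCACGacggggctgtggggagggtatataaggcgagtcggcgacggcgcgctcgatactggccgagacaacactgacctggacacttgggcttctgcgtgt

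Dnajc3, which encodes the kinase inhibitor and co-chaperone p58IPK, had the smallest p of the list. It read 11.17, 11.03 and 11.30 at 1% LA and 10.81, 10.37 and 10.70 at 10% LA, without overlap. The difference was -0.54 (SE 0.18, unadjusted p = 0.0135, adjusted p = 0.999 in limma), or -0.38 with the choroid plexus covariate. Creld2, a secreted disulfide isomerase-like protein, read 8.39, 8.14 and 7.98 against 8.08, 7.62 and 7.56, a difference of -0.42 (SE 0.20). Hspa5, the main chaperone BiP and named outside the rule, read 15.87, 15.92 and 15.74 against 16.15, 15.01 and 15.57. Mouse 1 of the higher dose was thus above all 1% LA mice, and the Hspa5 difference of -0.27 was 0.02 without 10% LA mouse 2 and 0.15 with the covariate.

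The element, sought on both strands, was found in 39 of 32851 promoter windows (0.119%) and in 6 of the 18 windows of this list (33.3%). A match is a description of letters and not a sign of binding. The 6 genes with it (Hspa5, Hsp90b1, Calr, Canx, Creld2 and Dnajc3, all folding factors of the endoplasmic reticulum) were lower by value, with a median of -0.28. The 12 without it had 4 higher and 8 lower and a median of -0.06. For the remaining 2 genes no window was matched. The split was made after the values were seen. With the covariate the medians were -0.10 and -0.08, with 4 of 6 and 8 of 12 lower. Herpud1, of endoplasmic reticulum-associated degradation, differed by -0.45 (SE 0.22), Pdia3, a disulfide isomerase, by -0.49 (SE 0.27), Ddit3, the factor CHOP, by -0.34 (SE 0.18) and Xbp1 by -0.29 (SE 0.20), with Pdia3 and Xbp1 named outside the rule.

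Cytosolic heat shock genes and chaperones were lower by less. Of 21 kept, 6 were higher and 15 lower with a median of -0.11. All 21 intervals lay within 2-fold, against 94.5% of all clusters. Hspa1a, the inducible HSP70, read 8.85, 8.75 and 8.77 at 1% LA and 8.33, 8.13 and 8.36 at 10% LA. The doses were clearly apart, with a difference of -0.52 (SE 0.15, unadjusted p = 0.00832) that was -0.43 with the covariate. Its near-identical copy Hspa1b can share probes with it, so the value may belong to either gene. Dnajb1, the HSP40 partner of HSP70, read 10.46, 11.16 and 10.45 against 10.35, 10.15 and 10.40, a difference of -0.39 (SE 0.22). A heat shock element spelled GAANNTTCNNGAA was present in 5 of 21 promoter windows of this list (23.8%) and in 0.603% of all windows. For comparison, the cAMP response element TGACGTCA was in 4 of 40 windows of the immediate early genes (10%) and in 1.79% of all, and the OTX2 core TAATCC in 2 of 24 choroid plexus windows (8.33%) and in 7.06% of all.

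Inflammatory and stress genes were examined because LPS is named in the description of 2 of the 1% LA mice. Of 32 endotoxin-responsive genes only 9 passed the signal filter, 4 higher and 5 lower at 10% LA with a median of -0.01. Their mean level was 8.79, 8.43 and 8.58 in the 1% LA mice, the first 2 being those with the description, and 8.80, 8.55 and 8.40 in the 10% LA mice. The levels of both described mice thus lay within the range of the others, for the 9 genes that passed the filter. The remaining 23 genes fell below it and do not enter these levels. Whether the described mice had received LPS was not tested. Interferon and antigen presentation genes (11 kept) had a median of -0.03. Ifit3, an interferon-induced antiviral protein, read 6.50, 7.18 and 7.09 at 1% LA and 8.11, 7.66 and 7.05 at 10% LA, a difference of 0.68 (SE 0.29). Glucocorticoid-responsive genes (21 kept) had 11 higher and 10 lower with a median of 0.00.

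Metallothionein and antioxidant genes (22 kept) were split 11 and 11 with a median of -0.01. Srxn1, the sulfiredoxin that reactivates peroxiredoxins, read 7.91, 8.09 and 8.03 against 8.47, 8.23 and 8.52, without overlap and with a difference of 0.40 (SE 0.16). Mt2, a stress-inducible metallothionein, differed by 0.60 (SE 0.32) and Mt3, its brain form, by 0.64 (SE 0.41). Nqo1, a quinone reductase, differed by -0.46 (SE 0.21). Esterase and xenobiotic genes, among which are candidates for splitting an ester such as LA, kept 19 of 44 members, 12 higher and 7 lower with a median of 0.06. Gstp1, a glutathione transferase, differed by 0.44 (SE 0.37) through its low value of 11.61 in 1% LA mouse 1, and by -0.08 without that mouse.

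Energy and synthesis genes had small median differences. Oxidative phosphorylation subunits (75 kept) had 29 higher and 44 lower with a median of -0.02. All 75 intervals lay within 2-fold, against 94.5% of all clusters. The median half-width of the intervals was 0.42, against 0.44 over all clusters. Ndufb7, a complex I subunit, read 9.43, 9.55 and 9.30 at 1% LA and 8.95, 9.14 and 8.83 at 10% LA, a difference of -0.45 (SE 0.16), while Ndufc1 of the same complex differed by 0.46 (SE 0.19). Cytosolic ribosomal proteins (61 kept) had 39 higher and 22 lower, counting 1 with equal means, with a median of 0.05. For 60 of the 61 the interval lay within 2-fold. Glycolysis and hypoxia genes (26 kept) had 8 higher and 18 lower with a median of -0.09, and 25 of the 26 intervals lay within 2-fold. Among them were Ankrd37, a hypoxia-inducible ankyrin protein, at -0.49 (SE 0.21) and Ldhb, lactate dehydrogenase B, at -0.47 (SE 0.24). Cholesterol genes (27 kept) had a median of -0.05.

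Thyroid hormone and retinoid handling genes (18 kept, median -0.15) included choroid plexus genes. Stra6, the receptor for retinol-binding protein, read 10.05, 9.32 and 9.61 at 1% LA and 9.54, 8.58 and 8.87 at 10% LA, a difference of -0.66 (SE 0.28) that was -0.23 with the covariate. Slco1c1, a thyroxine transporter, differed by -0.48 (SE 0.31), and by 0.02 with the covariate. Imprinted and nuclear noncoding RNA genes (15 kept) had a median of -0.04. Splicing factor genes (27 kept) had a median of 0.00. Cwc22, a spliceosome factor in that list named outside the rule, read 7.11, 10.56 and 14.34 at 1% LA and 12.44, 7.90 and 6.80 at 10% LA. Its spread within each dose, over more than 5 log2 units, exceeded the difference of -1.62 (SE 1.79).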

How the data were processed

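Hippocampal RNA of 6 mice, 3 at 1% LA and 3 at 10% LA, was compared on 1 array per mouse. The log2 signals per transcript cluster were deposited by the authors after the SST-RMA normalization that the design text names, and Transcriptome Analysis Console 4.0.2 is named in the submitters' processing notes. No source used here names the genome build of the array annotation.

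Values were used as deposited. Of 22206 clusters, 21367 carried 1 gene symbol, and 836 with several entered the fit unnamed. Clusters with a mean over the 6 arrays above the 40th percentile (5.97) were kept, 13319 in all. Differences were tested with limma 3.58.1 in R 4.3.3 (lmFit and eBayes) on the 6 arrays, with Benjamini-Hochberg adjustment over all clusters kept and a threshold of 0.05. Every p-value and interval comes from this fit. A permutation test of 3 against 3 arrays cannot go below p = 0.1. The script was checked on data with known answers. The number of arrays limits precision, with a median SE of 0.193.

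The members and the 42 gene lists were chosen with earlier results of these data known. Of 1227 list entries, 1165 were matched, 2 of them by an older symbol, 51 lay on clusters with several symbols and 11 were not found. Lists are described by counts and medians. Named genes were the 12 largest separated differences per direction at unadjusted p under 0.05, without predicted genes and smell receptors (6 skipped), and up to 4 members of smallest p per list. Genes outside this rule are marked. Alternatives covered filters, scaling, the series matrix (log2 values per probe set, deposited by the authors), array weights, variance model, all 9 arrays, a replicate block, the mean choroid plexus marker level as a covariate and each array left out. The third vehicle column differs between the deposited tables and entered only the 9-array settings and the vehicle values shown.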

Additional observations from a re-analysis of the deposited data

How the results depend on the processing

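In all 17 alternatives 0 clusters passed the adjusted threshold in limma. The smallest adjusted p over them was 0.334, without 10% LA mouse 1, and unadjusted p-values under 0.05 numbered 185 to 705. The 24 named genes gave 391 values, none of which passed, with sizes 0.455 to 1.39 times those reported. They were picked for not overlapping, so leaving out an array cannot turn their sign, and the kept direction is no sign of stability. By the submitters' criteria 13 clusters became 20 in the series matrix, 8 with array weights, 30 with a replicate block, and 11 to 62 with single arrays left out, the highest without 10% LA mouse 1, with 26 without 1% LA mouse 2 and 24 without 1% LA mouse 3. The 833 clusters that did not overlap became 1585 without a filter, 515 above the 60th percentile, and 1813 to 2291 with single arrays left out, where 3 arrays face 2. Settings that change only the model leave this count as it is. The labels give no pairing by replicate number. Deviations from the group means correlated at -0.09, 0.17 and 0.08 for same-numbered mice and at -0.21 to 0.14 for the other pairs. With 3 mice a group these values cannot exclude a pairing. With the replicate block 492 clusters had an unadjusted p under 0.05 in limma, against 341 without it, and 0 passed the adjusted threshold.

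Some single genes reversed with the choroid plexus covariate: Slco1c1 to 0.0195, Igf2 to 0.012, Sulf1 to 0.1076, Trpv4 to 0.181, Hspa5 to 0.1494, Calr to 0.0322, Ier5 to -0.1527 and Egr1 to -0.3748. Trpv4 is itself part of that covariate. With array weights Egr1 stood at -0.0163. With single arrays left out, Arc ranged from -0.2483 to 0.0017, Gstp1 from -0.0817 to 0.7083, Cwc22 from -3.4033 to 0.2117, Hspa5 from -0.5533 to 0.0167, Ier5 from -0.0267 to 0.6033 and Egr1 from -0.4 to 0.52. The cause was not tested. The median turned sign with some array left out in 24 of 42 lists, most of them near 0, and in 29 under some alternative. Of 14 lists with a median over 0.1 in size, 3 turned with an array left out: microglia, CA1 and clock genes. Of 714 list medians, 28 moved by more than the SD between mice of the list's mean level, a wide measure for lists that vary between mice. With the covariate 10 did, among them oligodendrocyte precursors (0.10), antioxidant genes (0.12), endotoxin-responsive genes (0.20), synaptic vesicle genes (-0.15), glutamate receptors (-0.05) and potassium channels (-0.06), beside those given in the report. Without a filter ependymal markers stood at -0.12, blood markers at 0.02 and monoamine genes at 0.05. Without 10% LA mouse 3 the immediate early genes stood at 0.10 and the clock genes at 0.04. Without 10% LA mouse 2 the TRP channels stood at -0.19 and the synaptic vesicle genes at -0.14.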
